A study of Mus musculus with 10 samples.

Results

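Livers of fasted mice that lack NAMPT in hepatocytes were compared with livers of fasted WT mice across all expressed genes, using RNA-seq libraries taken from 5 NAMPT LKO Fasting mice and 3 WT Fasting mice. These 8 of the 10 livers in the series were chosen by their labelled genotype and feeding state alone. Both groups carried floxed Nampt alleles on both chromosomes. NAMPT LKO mice also carried Albumin-cre, which is driven by a promoter active in hepatocytes, and WT mice were littermates without cre. Mice were labelled C57B/6J, were 12 weeks old and had fasted for 24 h according to the labels, whereas the text of the study gives a shorter fast for this experiment. The other 2 livers came from WT mice fasted for 22 h and refed for 2 h. They entered the fit only to add to its estimate of spread, and their values are given below where they help to place a gene. Each library came from 1 mouse, so p-values measure the spread between these mice.

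NAMPT converts nicotinamide to nicotinamide mononucleotide, the rate-limiting step of the salvage route that most tissues use to make NAD. NAD carries electrons from fuel oxidation to the respiratory chain and is consumed by sirtuins, PARP enzymes and CD38. The liver can also make NAD from tryptophan and from nicotinic acid, and in fasting it oxidizes fatty acids, makes ketone bodies and glucose, and secretes the hormone FGF21.

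Total counts of the 8 fasted libraries ranged from 30603080 to 43434139. Levels are given as CPM, the deposited counts relative to a library total that edgeR's TMM method scaled, and a difference is a log2 fold change of NAMPT LKO Fasting minus WT Fasting. The hepatocyte transcript Alb took 40845 to 73844 CPM of the unscaled library totals in NAMPT LKO livers and 55812 to 74053 in WT livers, as the label of liver requires. Of the pancreatic transcripts, Prss1, Cpa1 and Amy2a5 had no count in any fasted liver. Cela2a, Cpb1, Pnlip, Clps and Ctrb1 had counts in some livers, at most 0.27 CPM of the same totals. Cela1 was higher, at 3.59 to 5.28 CPM in NAMPT LKO livers and 6.16 to 6.70 in WT livers. The Y-linked gene Ddx3y was at 67.3 to 123 CPM in the 8 livers, so all 8 carried a Y chromosome. Liver 5 of the NAMPT LKO group stood apart from the other livers across many genes, and liver 3 of the WT group stood apart most in interferon response genes. WT liver 3 also had the lowest share of mitochondrial counts of the 8 livers and the highest averaged level of Kupffer cell, heat shock, ATF4 and immediate early genes. Several results that rest on either are given with and without it. Other values are for all 8 livers unless stated.

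Nampt itself was the gene that passed the test. It lies on the plus strand of chromosome 12 (chr12:32820335-32853369, GRCm38). NAMPT LKO livers 1 to 5 read 12.1, 14.0, 11.8, 12.5 and 15.3 CPM, and WT livers 1 to 3 read 63.0, 73.4 and 141 CPM. The refed WT livers, at 78.0 and 67.8 CPM, lay beside the first and second WT Fasting livers. No NAMPT LKO liver came near a WT liver, and the 5 NAMPT LKO values were much closer together (mean 13.2 ± 1.49 CPM, SD, n = 5) than the 3 WT values (92.4 ± 42.3 CPM, SD, n = 3). The fall was 2.81 on the log2 scale (a log2 fold change of -2.81, SE 0.22, 95% interval -3.31 to -2.32, edgeR's quasi-likelihood adjusted p = 0.00102), and the mean of the WT livers was 7.02-fold that of the NAMPT LKO livers. Without WT liver 3 the log2 fold change was -2.37. Reads from Nampt remained in every NAMPT LKO liver. A whole liver also holds cells that Albumin-cre does not target, and in bulk RNA fewer cells of a type cannot be told apart from less RNA per cell. The source of the remaining Nampt reads was not tested.

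Of 13444 genes tested, Nampt alone passed at an adjusted p at or under 0.05 by the quasi-likelihood test (0.00744%). An unadjusted p under 0.05 was reached by 366 genes that were higher (2.72%) and 445 that were lower (3.31%) in NAMPT LKO livers. Over all tested genes, the median difference was a log2 fold change of 0.00. For 10991 genes, or 81.8%, the 95% interval of the difference lay inside a 2-fold change in either direction, so for these genes the data bound the difference to under 2-fold. The median SE of a log2 fold change was 0.18. Other tests on the same counts called more genes, 24 by edgeR's exact test (0.179%) and 21 by the DESeq2 Wald test (0.156%), of which 17 were shared. These 17 comprised Nampt with 5 other lower and 11 higher genes, and they are described by their values because the quasi-likelihood test passed none but Nampt.

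The gene next in rank after Nampt was Sult5a1, a cytosolic sulfotransferase gene on chromosome 8 (chr8:123142847-123158315). The NAMPT LKO livers read 4.73, 3.40, 5.65, 5.08 and 3.43 CPM, against 20.6, 10.9 and 24.2 CPM in the WT livers. The groups did not overlap, and the refed WT livers lay between them at 6.99 and 10.6 CPM. The log2 fold change was -2.06 (SE 0.26, edgeR's quasi-likelihood adjusted p = 0.0562). Another drug-metabolism gene, Cyp2b10, a cytochrome P450 that is a classical target of the receptor CAR, read 6.61, 11.7, 4.91, 11.4 and 14.96 CPM in NAMPT LKO livers and 18.2, 69.1 and 31.5 CPM in WT livers. Here too every NAMPT LKO liver lay below every WT liver, but the WT livers differed widely and the refed livers, at 14.3 and 10.9 CPM, lay among the NAMPT LKO values (log2 fold change -1.996, SE 0.42, adjusted p = 0.535). Cyp2b genes are closely alike, so short reads may be shared among them.

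Lower levels were also seen in a pair of membrane protein genes. Gpc1, a heparan sulfate proteoglycan of the cell surface, was at 5.45, 3.97, 5.13, 5.29 and 3.64 CPM in NAMPT LKO livers against 12.1, 12.7 and 7.77 CPM in WT livers (log2 fold change -1.21, SE 0.20, adjusted p = 0.28). Susd4, a complement regulator, was at 15.6, 16.5, 13.1, 12.7 and 12.9 CPM against 33.8, 30.9 and 21.8 CPM (log2 fold change -1.03, SE 0.17, adjusted p = 0.28). Both genes had WT liver 3 as the WT liver nearest to the NAMPT LKO group. For Susd4, a refed liver at 14.7 CPM lay inside the NAMPT LKO range. Psmc3ip, which acts with the recombinases of meiosis, gave the largest log2 fold change of the lower genes that both tests called (-4.12, SE 0.80, adjusted p = 0.392). It was at 0.0271 to 0.324 CPM in NAMPT LKO livers, and the WT livers spread from 0.335 through 2.70 to 7.11 CPM, so its lowest WT liver stood beside the NAMPT LKO livers. Psmc3ip passed the 1 CPM needed for testing only through WT Fasting livers 2 and 3, in the group where it was higher.

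Spp1, which encodes the secreted protein osteopontin and is made in bile duct cells among others, led the genes that were higher. It lies on chromosome 5 (chr5:104435118-104441050). NAMPT LKO livers read 35.2, 26.7, 19.4, 32.8 and 37.8 CPM, whereas WT Fasting livers read 8.67, 11.5 and 9.06 CPM and the refed livers 11.8 and 8.95 CPM. All 5 NAMPT LKO livers were above all 5 WT livers of either feeding state. The log2 fold change was 1.64 (SE 0.22, 95% interval 1.15 to 2.13, edgeR's quasi-likelihood adjusted p = 0.0603), and the NAMPT LKO mean was 3.12-fold the WT mean.

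Other genes of this group, all without overlap between the fasted groups, have varied roles. Steap2, a metalloreductase, was at 11.9 to 17.4 CPM in NAMPT LKO livers and 7.01 to 8.79 CPM in WT livers (log2 fold change 0.86, adjusted p = 0.321). The flavin monooxygenase Fmo2 was at 29.4 to 55.2 CPM against 19.3 to 21.9 CPM (1.04, adjusted p = 0.501), and the refed livers were at 27.1 and 39.6 CPM. Mr1, which presents vitamin B metabolites to T cells, was at 3.08 to 3.83 CPM against 1.84 to 2.02 CPM (0.88, adjusted p = 0.392). Ttc39a was at 3.70 to 6.74 CPM against 2.17 to 2.61 CPM (1.19, adjusted p = 0.321), with refed livers at 4.06 and 3.55 CPM, and Morc4 at 3.37 to 6.06 CPM against 1.86 to 2.56 CPM (1.03, adjusted p = 0.643), with refed livers at 3.43 and 3.04 CPM. Gspt2, a translation termination factor, was at 0.382 to 2.01 CPM against 0.113 to 0.144 CPM (3.30, adjusted p = 0.392), while both refed WT livers were above 1 CPM, at 1.17 and 1.15. Lrrn4 was at 0.489 to 1.91 CPM against 0.0958 to 0.31 CPM (2.44, adjusted p = 0.761). It passed the 1 CPM needed for testing only through NAMPT LKO livers, the group where it was higher. Thus the NAMPT LKO range held both refed WT livers for Gspt2 and 1 of them for Fmo2, Ttc39a and Morc4, whereas Steap2 in refed livers was below all fasted livers, at 3.47 and 4.33 CPM.

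**Figure D1:**
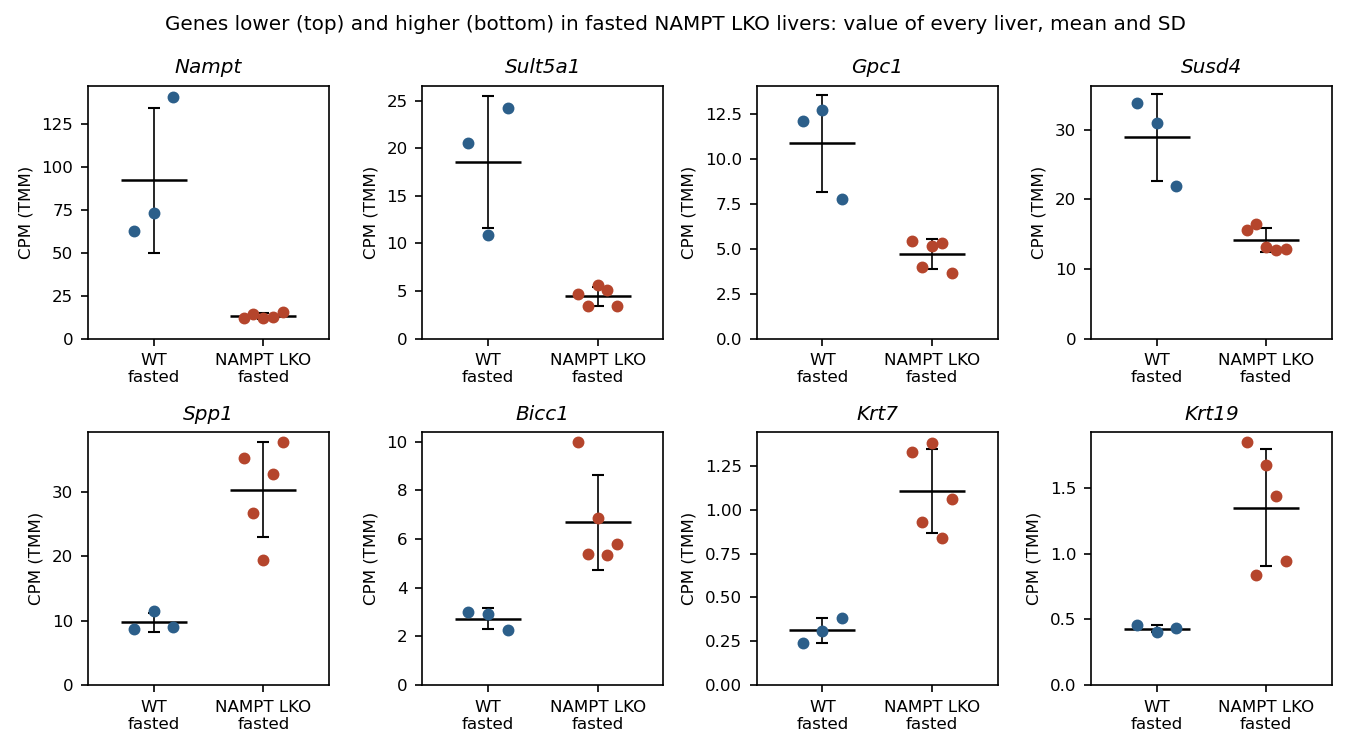
TMM-scaled CPM of 8 genes in every fasted liver, with WT livers in blue (n = 3), NAMPT LKO livers in red (n = 5), a bar at each mean and error bars of 1 SD. In every panel the groups do not overlap, and for Nampt the NAMPT LKO livers sit between 11.8 and 15.3 CPM while the WT livers sit between 63.0 and 141 CPM.

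By the rule for large differences (a gene symbol, at least 5 CPM on average, no overlap and an unadjusted p under 0.05), 69 higher and 113 lower genes qualified, and the 10 largest of each were examined. Besides those given above, the lower genes included Ddit4, an inhibitor of mTORC1 signaling that is induced by stress and glucocorticoids. Ddit4 was at 6.00, 11.3, 9.16, 6.79 and 17.6 CPM in NAMPT LKO livers, 23.2, 23.5 and 18.7 CPM in WT livers, and 4.505 and 2.997 CPM in refed livers (log2 fold change -1.10, adjusted p = 0.761). Bcl6, a transcriptional repressor, was at 10.1, 17.1, 15.01, 12.0 and 20.2 CPM against 33.4, 36.8 and 27.4 CPM (log2 fold change -1.13, adjusted p = 0.798). The refed livers differed from each other in Bcl6, at 32.5 and 5.90 CPM. Wars, a tryptophanyl-tRNA synthetase gene that interferons induce, was at 10.3 to 13.4 CPM against 13.7, 14.3 and 39.1 CPM, so its difference of -0.90 leaned on WT liver 3. Psmg4, a proteasome assembly chaperone, was at 5.85 to 7.04 CPM against 7.97 to 12.9 CPM (-0.62). Gm13394 reached 37.4 CPM in WT liver 1 and was under 3 CPM in the other 7 fasted livers. On the higher side stood Setd7 (0.58), Ppl (0.70) and Unc13b (0.64), together with Trove2 (0.83), Bcam (1.05) and Atpif1 (0.70). For Bcam and Atpif1 NAMPT LKO liver 5 was well above the rest, at 15.7 and 21.9 CPM. The other NAMPT LKO livers were at 3.85 to 6.61 CPM for Bcam and 7.65 to 11.1 CPM for Atpif1. Both differences are given with liver 5 included and leaned on it. Adjusted p-values of all these genes were at least 0.661.

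Among 18 markers of bile duct cells, most were higher in NAMPT LKO livers. Without any filter on low values, 17 of the 18 markers were higher and 1, Muc1, was lower, with a median log2 fold change of 1.33, beside 13062 higher and 12479 lower of the 26175 genes with a count and a median of 0.00. After the filter 12 markers were tested, all higher, with a median of 1.22, and 8 had an unadjusted p under 0.05 (all genes, 2.72% higher). Cldn7 was above the filter through a NAMPT LKO liver only. For 8 of the 12 every NAMPT LKO liver lay above every WT Fasting liver, beside 252 of all tested genes (1.87%), and for 5 of the 12 every NAMPT LKO liver lay above the refed livers as well, beside 122 of all genes (0.907%). None passed at an adjusted p at or under 0.05 by the quasi-likelihood test. The exact test called 4 of them and DESeq2 4.

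The keratins of bile duct epithelium gave the clearest separation at low levels. Krt7 read 1.33, 0.929, 1.38, 0.841 and 1.06 CPM in NAMPT LKO livers and 0.240, 0.310 and 0.385 CPM in WT livers (log2 fold change 1.82, SE 0.36, adjusted p = 0.392). Krt19 read 1.85, 0.833, 1.67, 1.44 and 0.946 CPM against 0.455, 0.403 and 0.430 CPM (1.64, SE 0.37, adjusted p = 0.661). In the refed WT livers Krt7 was at 0.986 and 0.576 CPM and Krt19 at 0.650 and 1.11 CPM, which overlapped the NAMPT LKO range for both genes.

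Surface proteins of the duct showed the same order. Epcam, an epithelial adhesion molecule, read 2.59, 1.44, 1.24, 2.01 and 2.87 CPM against 0.527, 1.12 and 0.498 CPM (log2 fold change 1.52, SE 0.39). Cd24a, a surface sialoprotein, read 5.45, 3.04, 2.15, 2.55 and 4.85 CPM against 1.03, 1.55 and 1.52 CPM (1.398, SE 0.35). Livers 1 and 5 were the highest NAMPT LKO livers for both. The cilium proteins Pkhd1 (0.55, SE 0.16) and Dcdc2a (0.83, SE 0.27) and the RNA-binding protein Bicc1 (1.29, SE 0.24), which acts in tubular and ductal epithelia, also had no overlap. Bicc1 read 9.99, 5.38, 6.87, 5.35 and 5.79 CPM against 3.02, 2.91 and 2.24 CPM. By contrast Tm4sf4 (0.06, SE 0.16), at 38.9 to 63.5 CPM, and Sox9 (0.37, SE 0.19) overlapped between the groups.

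Because levels differ between markers, each marker was centred on its mean over the 8 livers and averaged. The average was 0.70, 0.19, 0.20, 0.41 and 0.27 in NAMPT LKO livers 1 to 5 and -0.78, -0.36 and -0.63 in WT livers 1 to 3, with no overlap. The summed level of the 12 markers was 128 to 151 CPM in NAMPT LKO livers and 86.9 to 115 CPM in WT livers. Leaving out NAMPT LKO liver 5 gave a median of 1.30 with 8 markers without overlap (all genes, 3.28%). Leaving out WT liver 3 gave 1.05 with 11 markers higher, 1 lower and 9 without overlap (all genes, 3.86%).

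Markers of stellate cells and fibrosis showed a smaller difference. Of 23 markers 20 were tested, of which 17 were higher and 3 lower, with a median log2 fold change of 0.27 (0.19 without WT liver 3). Col1a1, the main chain of type I collagen, read 8.59, 2.82, 7.06, 4.80 and 2.01 CPM against 1.46, 1.67 and 1.25 CPM (1.79, SE 0.47, adjusted p = 0.761) and was called by DESeq2. Col3a1 read 19.2, 11.2, 16.0, 13.3 and 8.10 CPM against 8.43, 6.11 and 7.23 CPM (0.90), with NAMPT LKO liver 5 inside the WT range. Livers 1 and 3 had the highest NAMPT LKO values of both collagens. The activated stellate cell genes Acta2 and Timp1 stayed under 1 CPM of the unscaled totals in all 8 livers, and the summed level of the 20 markers was 456 to 531 CPM in NAMPT LKO livers and 439 to 499 CPM in WT livers. Endothelial markers had a median of 0.02 over 18 genes and hepatocyte markers a median of -0.09 over 12 genes, with 0 and 1 (Apob, 0.25) at an unadjusted p under 0.05 (all genes, 2.72% higher and 3.31% lower). Without NAMPT LKO liver 5 the hepatocyte median was -0.21 with 3 lower genes at that level (611 of all 13444 genes). Of 20 lymphocyte and neutrophil markers only 8 passed the filter, with a median of -0.16 (0.056 without WT liver 3). The part that the number of bile duct or stellate cells has in these differences was not tested.

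**Figure D2:**
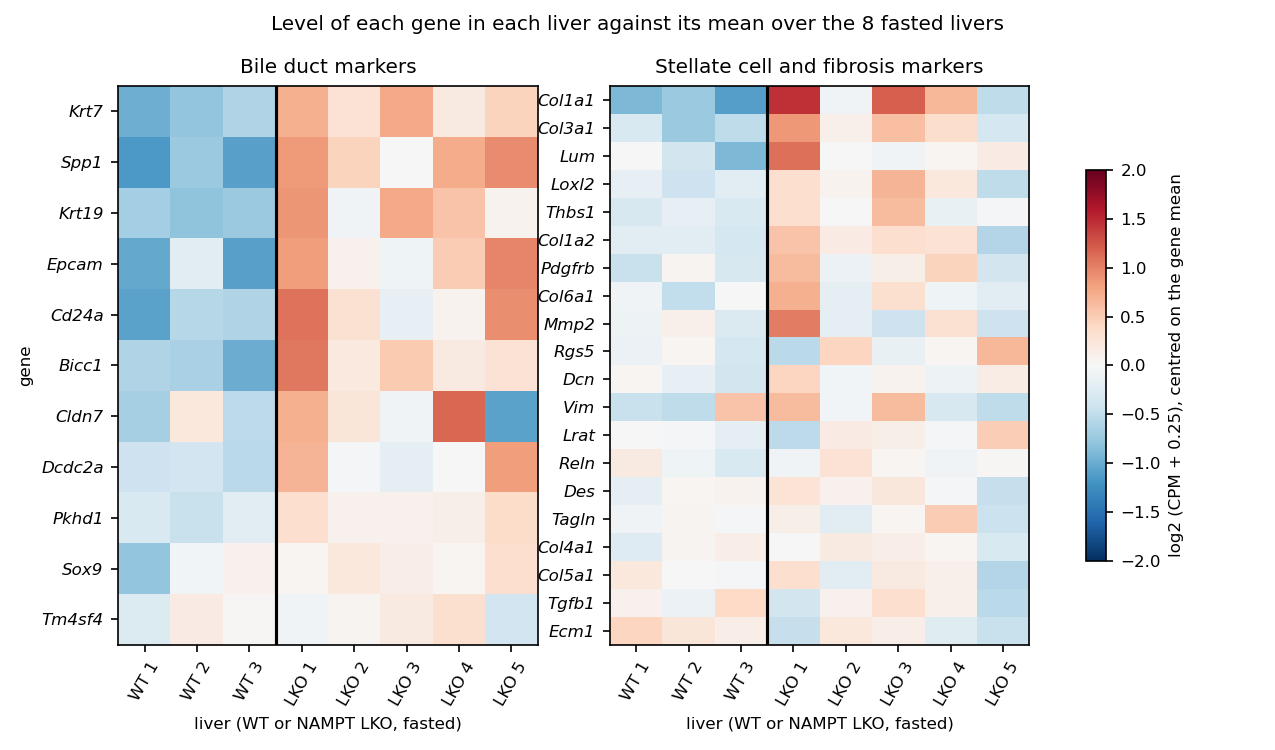
Level of bile duct markers (left, 11 of the 12 tested) and stellate cell and fibrosis markers (right, 20 genes) in each fasted liver, as log2 of CPM plus 0.25 centred on the gene's mean over the 8 livers. Red is above and blue below that mean, and the WT livers are left of the black line. The upper bile duct rows are blue in all 3 WT livers, while the collagen rows are reddest in NAMPT LKO livers 1 and 3.

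The genes nearest to NAMPT in function differed little. Of 18 genes that make NAD by other routes or use its product, 16 were tested, with 8 higher, 8 lower, a median log2 fold change of 0.01 and none at an unadjusted p under 0.05. For all 16 the 95% interval of the difference lay within 2-fold. Naprt, which starts NAD synthesis from nicotinic acid, was at 99.1, 94.6, 107, 82.4 and 52.9 CPM in NAMPT LKO livers and 103, 93.4 and 117 CPM in WT livers (log2 fold change -0.26, 95% interval -0.68 to 0.16). Qprt, which joins the tryptophan route to NAD, was at 76.8 to 92.4 CPM against 75.7 to 112 CPM (-0.17). Nmrk1, the nicotinamide riboside kinase, was at 13.7 to 18.5 CPM against 13.5 to 17.0 CPM (0.07), and Nmnat1, the nuclear enzyme that completes NAD, at 14.0 to 18.8 CPM against 13.8 to 16.8 CPM (0.05). Groups overlapped for every one of these genes.

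Of 19 tested genes that consume NAD or clear nicotinamide, 1 had an unadjusted p under 0.05 in the lower direction (all genes, 3.31%). The median was -0.057, and without WT liver 3 it was 0.0076. No lower gene and 1 higher gene were then at that level (174 and 276 of all 13444 genes). Without NAMPT LKO liver 5 there were 2 lower genes at that level (611 of all 13444 genes). The lower gene with all livers was Parp3, a PARP of DNA repair, at 19.0 to 24.3 CPM in NAMPT LKO livers and at 20.2, 35.8 and 43.7 CPM in WT livers (log2 fold change -0.57, adjusted p = 0.798). Sirt1, an NAD-dependent deacetylase, was at 12.1, 12.4, 12.0, 11.2 and 9.40 CPM against 10.99, 9.98 and 10.6 CPM (0.12, 95% interval -0.15 to 0.38). Nnmt, which methylates nicotinamide, was at 64.8 to 111 CPM against 93.4 to 104 CPM (-0.17). The interferon-inducible Parp14 (-0.96) and Parp9 (-0.54) were the other members furthest below 0.

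Genes of mitochondrial energy production leaned lower by small amounts. Of 36 nuclear genes of respiratory complex I, 28 were lower and 8 higher, with a median log2 fold change of -0.08, 6 at an unadjusted p under 0.05 in the lower direction (all genes, 3.31%) and 4 without overlap (all genes, 2.12%). Ndufa13, an accessory subunit, was at 114, 111, 105, 127 and 84.6 CPM in NAMPT LKO livers and 129, 147 and 159 CPM in WT livers (-0.42, SE 0.13, adjusted p = 0.761), so that liver 4 nearly touched WT liver 1. Of 40 tested genes of complexes II to V, 29 were lower, 6 of them at an unadjusted p under 0.05 and 6 without overlap, with a median of -0.14. Uqcrq, of complex III, was at 209 to 281 CPM against 295 to 337 CPM (-0.34), and Cox4i1, of complex IV, at 303 to 348 CPM against 370 to 382 CPM (-0.22). The refed livers, at 279 and 274 CPM for Uqcrq and 305 and 328 CPM for Cox4i1, lay within the NAMPT LKO range of both. All 36 genes of complex I and 38 of the 40 others had 95% intervals within 2-fold.

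The 13 protein genes of the mitochondrial genome went the other way, all 13 higher with a median of 0.43 and none at an unadjusted p under 0.05. Livers at both ends moved this median. Counts from mitochondrial DNA made up 10.6%, 12.8%, 10.4%, 12.9% and 21.1% of the total in NAMPT LKO livers and 10.96%, 11.6% and 7.42% in WT livers. Without NAMPT LKO liver 5 the median was 0.05, with 9 genes higher and 4 lower. It was 0.27 without WT liver 3, and -0.097 with 7 genes lower without both. Without NAMPT LKO liver 5 the nuclear lists leaned further, with 34 of 36 genes of complex I and 37 of 40 of the other complexes lower, of which 11 and 9 were at an unadjusted p under 0.05 (611 of all 13444 genes). The lower genes at an unadjusted p under 0.05 were 2 in complex I and 3 in the other complexes when WT liver 3 was left out (174 of all 13444 genes).

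Proteasome genes were mostly lower by small amounts. Of 31 subunits 26 were lower and 5 higher, with a median log2 fold change of only -0.10. An unadjusted p under 0.05 was reached by 7 and no overlap by 8, beside 3.31% and 2.12% of all genes. Psma7, a subunit of the outer ring of the core, was at 125, 132, 127, 145 and 141 CPM in NAMPT LKO livers, 161, 163 and 187 CPM in WT livers and 160 and 148 CPM in refed livers (-0.35, SE 0.10, adjusted p = 0.761). Psmb5, which holds a catalytic site, was at 49.3, 48.6, 52.5, 54.5 and 36.5 CPM against 63.3, 59.5 and 60.2 CPM, with the refed livers at 62.4 and 61.4 CPM (-0.34, SE 0.12). For both genes all 5 NAMPT LKO livers were below all 5 WT livers, as they were for 7 of the 31 subunits, against 118 of all tested genes (0.878%). Without NAMPT LKO liver 5 all 31 subunits were lower, with a median of -0.16, 12 at an unadjusted p under 0.05 (611 of all 13444 genes) and 14 without overlap, where the shares of all genes became 3.45% without overlap in that direction. Without WT liver 3 there were 25 lower, 2 at an unadjusted p under 0.05 (174 of all 13444 genes) and 8 without overlap (all genes, 4.48%). No subunit passed the adjusted test.

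Fuel pathways of the fasted liver differed by small amounts, and several leaned lower in NAMPT LKO livers. Fatty acid oxidation had 11 genes higher and 14 lower of 25, a median of -0.05 and none at an unadjusted p under 0.05, with 5 (Echs1, Acaa1a, Eci1, Hadh and Acadvl) lower without overlap (all genes, 2.12%), and every interval within 2-fold. Leaving out NAMPT LKO liver 5 gave 17 lower, 3 of them at an unadjusted p under 0.05 (611 of all 13444 genes) and 6 without overlap (all genes, 3.45%). Echs1, which hydrates enoyl-CoA, was lower by 0.18 on the log2 scale. Of 30 tested targets of PPARA, the receptor that drives the fasting response, 18 were higher with a median of 0.05, whereas without WT liver 3 there were 12 higher and 18 lower with a median of -0.063. Ehhadh, a peroxisomal oxidation enzyme, was at 1843, 1996, 1250.1, 1791 and 1589 CPM against 1483, 1169 and 989.9 CPM (0.48, SE 0.18, adjusted p = 0.801). Gluconeogenesis and FOXO1 targets had 16 of 21 genes lower (median -0.13). The alanine transaminase Gpt (-0.29) was the 1 gene at an unadjusted p under 0.05 (all genes, 3.31%). No gene of that list was at that level without WT liver 3 (174 lower of all 13444 genes). Without NAMPT LKO liver 5 there were 2 lower genes at that level (611 of all 13444 genes). Amino acid catabolism had 36 of 46 genes lower (median -0.06), 4 of them at an unadjusted p under 0.05 (all genes, 3.31%), and without NAMPT LKO liver 5 there were 41 lower (median -0.10) with 8 at that level (611 of all 13444 genes). Within that list Gnmt, which disposes of methyl groups from S-adenosylmethionine, was at 1193, 1271, 1383, 1590.1 and 1314 CPM against 1592, 2011 and 1892 CPM (-0.44, SE 0.12, adjusted p = 0.761), and Ahcy, the next enzyme of the methionine cycle, at 2417 to 2743 CPM against 2909 to 3205 CPM (-0.25, SE 0.09). For Gnmt NAMPT LKO liver 4 nearly met WT liver 1, and refed livers at 1398 and 1536 CPM lay among the NAMPT LKO livers.

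Lipid synthesis genes were 10 higher and 12 lower, with none at an unadjusted p under 0.05. Several of them the study measured by qPCR in a different setting, Western diet-fed mice with or without NAMPT overexpression or hepatocyte SIRT1. Fasn was at 143, 74.1, 60.1, 78.7 and 66.8 CPM in NAMPT LKO livers and 82.3, 95.3 and 104 CPM in WT livers (log2 fold change -0.15, SE 0.24). Scd1, which desaturates fatty acids, was at 537 to 1432 CPM against 400 to 861 CPM (0.46, SE 0.36). Acaca (0.03, SE 0.14), Gpam (0.01, SE 0.11), Elovl6 (0.18, SE 0.29) and the glycolytic Pklr (-0.04, SE 0.25) had SEs as large as or larger than their differences.

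Fgf21 was at 10.7, 13.3, 14.0, 5.43 and 9.99 CPM in NAMPT LKO livers, at 7.497, 3.72 and 8.32 CPM in WT Fasting livers and at 1.25 and 0.461 CPM in refed livers. The fasted groups overlapped through NAMPT LKO liver 4 (log2 fold change 0.71, SE 0.37, 95% interval -0.10 to 1.52, adjusted p = 0.837). Ppargc1a, a coactivator of fasting genes, was at 19.2, 24.4, 23.8, 9.64 and 38.4 CPM against 12.4, 14.6 and 18.01 CPM (0.62, SE 0.34, adjusted p = 0.837). In both genes NAMPT LKO liver 4 was the lowest of its group and fell within or below the WT range.

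Secreted and endocrine genes included several with small differences. Of 34 tested complement and coagulation genes 21 were higher (median 0.07), with 3 higher at an unadjusted p under 0.05 (all genes, 2.72%), namely C8a and C9 of the membrane attack complex and Kng1, the kininogen precursor. Only 1 gene of this list was at that level without WT liver 3 (276 of all 13444 genes). Averaged over centred members, NAMPT LKO liver 3 stood highest at 0.18. The other NAMPT LKO livers were at -0.049 to 0.031 and the WT livers at -0.062 to 0.025. C8a was at 411, 361, 532, 368 and 430 CPM against 282, 329 and 303 CPM (0.47, SE 0.14, adjusted p = 0.761). Ceruloplasmin (Cp), a copper carrier of the acute phase, was at 1134, 995.7, 1187, 1039 and 1235 CPM against 875, 882 and 876 CPM (0.35, SE 0.11), and Apob, the structural protein of VLDL, at 7790 to 9217 CPM against 7059 to 7562 CPM (0.25). The 3 WT livers were nearly equal for Cp, and the NAMPT LKO livers all lay above them. Of the 27 acute-phase genes, 22 were higher and 5 lower (median 0.16), and without WT liver 3 there were 25 higher (median 0.32). Without NAMPT LKO liver 3 that median was -0.020. Of 25 growth hormone and sex-biased genes, Cish (1.35), Cux2 (1.29) and Igf1 (0.34) were at an unadjusted p under 0.05 on the higher side (all genes, 2.72%) and Hsd3b5 (-1.03), Bcl6, Elovl3 (-0.50) and Igfbp2 (-0.38) on the lower side (all genes, 3.31%). Leaving out WT liver 3 left 1 higher and 4 lower at that level (276 and 174 of all 13444 genes). The median of the list went from 0.054 to -0.017. Cish, a feedback inhibitor of growth hormone signaling, was at 1.36 to 4.44 CPM against 0.403 to 1.65 CPM, with the refed livers far above at 10.1 and 12.5 CPM.

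The ATF4 list had 18 of 22 tested genes lower, with a median of -0.18, and 3 at an unadjusted p under 0.05 (all genes, 3.31%). Without WT liver 3 there were 15 lower and the median was -0.084. Without NAMPT LKO liver 5 the lower genes at that level were 6 (611 of all 13444 genes). The 3 genes with all livers were Ddit4, Shmt2 of mitochondrial folate metabolism (-0.21), and Phgdh of serine synthesis, whose difference of -3.09 came from WT liver 2 alone (4.46 CPM, against 0.109 to 0.266 CPM in the other 7 fasted livers). The clock list had 3 lower genes of 22 at that level, Noct (-0.64), Ciart (-1.37) and Per1 (-0.37), all overlapping between groups. When WT liver 3 was left out it had 2 higher and 1 lower (276 and 174 of all 13444 genes). Its median went from -0.097 to 0.019. Leaving out NAMPT LKO liver 5 also turned the clock median, to 0.031, with 12 genes higher and 10 lower. The lower clock genes at that level were then 3 (611 of all 13444 genes). Of 24 genes of the NRF2 antioxidant response 16 were lower. Keap1, the inhibitor of NRF2 (-0.36), and Hmox1 (-0.72) were at an unadjusted p under 0.05 (all genes, 3.31%). Without WT liver 3 none of the 24 was at that level by the quasi-likelihood test. ER chaperone, heat shock, autophagy, cell cycle and TCA cycle lists had no gene at an unadjusted p under 0.05 and medians between -0.05 and 0.02. The heat shock median rested on single livers, with 19 of 20 genes lower (-0.17) without NAMPT LKO liver 5 and 17 higher (0.18) without WT liver 3. Without WT liver 3, 22 of 27 ER chaperone genes were higher (0.077), and the cell cycle median was 0.11. The TCA cycle list had 14 of 18 genes lower without NAMPT LKO liver 5. Of these, 3 had an unadjusted p under 0.05 (611 of all 13444 genes) and 4 had no overlap (all genes, 3.45%).

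**Figure D3:**
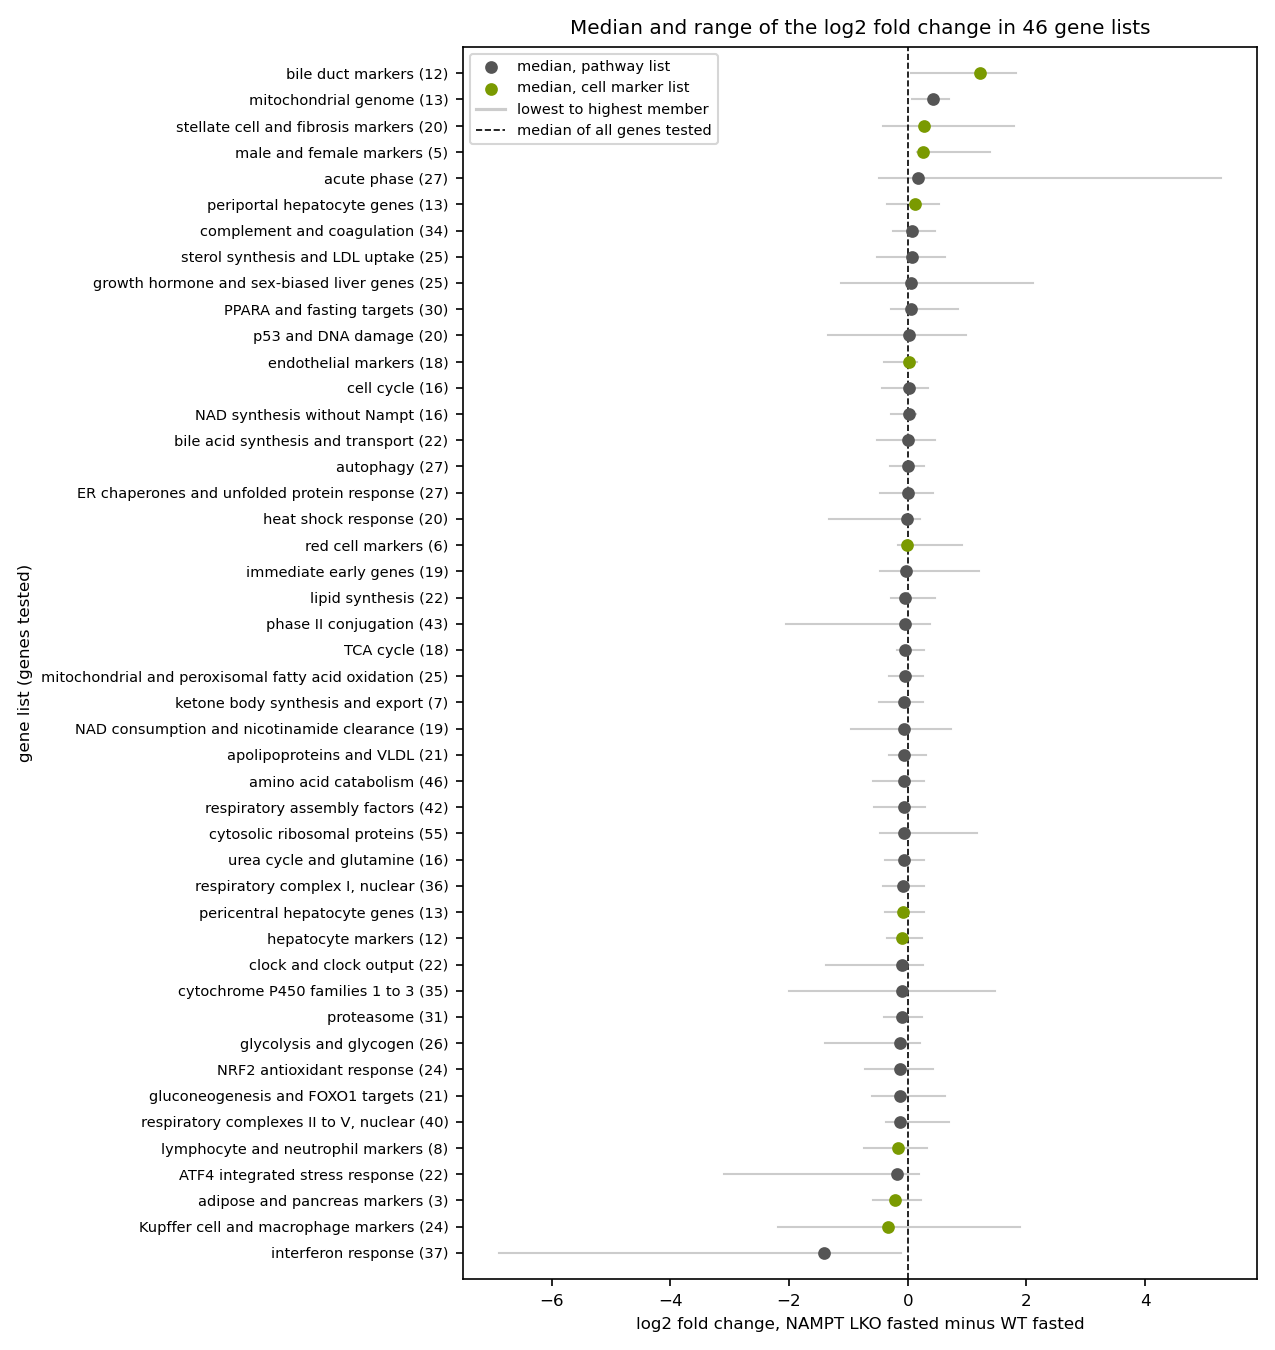
Median (points) and range from lowest to highest member (grey lines) of the log2 fold change, NAMPT LKO Fasting minus WT Fasting, in 35 pathway lists and 11 cell marker lists, with the number of tested genes in parentheses and a dashed line at the median of all 13444 genes. Bile duct markers lie at the top with a median of 1.22 and interferon response genes at the bottom with -1.42, and most other medians lie near 0.

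The list with the lowest median, the interferon response, rested on 1 control liver. All 37 tested genes of 39 were lower in NAMPT LKO livers on average, with a median log2 fold change of -1.42 and 26 at an unadjusted p under 0.05 (all genes, 3.31%), yet none of the 37 had groups without overlap (all genes, 2.12%). WT liver 3 was the highest of the 8 fasted livers for 37 of 37 genes and more than 2-fold above every other liver for 32. Its median excess over the next liver was 4.76-fold, with a range from 1.17 to 290.1-fold. Without WT liver 3 the median was 0.12, with 28 genes higher and 9 lower in NAMPT LKO livers. An unadjusted p under 0.05 was then reached by 2 higher genes (276 of all 13444 genes) and no lower gene (174 of all 13444 genes). No overlap was then found for 7 higher genes (all genes, 3.86%). With that liver the summed level in WT livers ranged from 3699 to 12973 CPM, and in NAMPT LKO livers from 3720.0 to 4333 CPM.

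The immunity-related GTPases Tgtp1, Igtp and Irgm1, which interferon gamma induces, lie on chromosome 11 and show the pattern. Tgtp1 was at 464 CPM in WT liver 3 and at 0.775 to 1.599 CPM in the other 7 fasted livers. Igtp was at 903 CPM against 16.9 to 31.3 CPM, and Irgm1 at 372 CPM against 26.2 to 37.4 CPM. The neighbouring Tgtp2 is so like Tgtp1 that short reads may be divided between them. The class II antigen presentation genes H2-Ab1 (215 CPM against 12.0 to 43.8 CPM) and Cd74 (335 CPM against 24.4 to 93.0 CPM) were likewise highest in WT liver 3, and so was the macrophage complement gene C1qb (108 CPM against 40.2 to 67.0 CPM).

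Promoter sequences of these 3 GTPase genes are shown because all 3 transcripts were high in the same liver. Each is a window of 80 bases taken from the 250 bases before the start of the gene in RefSeq of build GRCm38.p6, on the gene's strand, with capitals at matches, on either strand, to GAAA, any 2 bases and GAAA again, a core of the element that interferon-activated factors bind. The windows are chr11:58199476-58199555 on the plus strand for Igtp, chr11:48992279-48992358 on the minus strand for Tgtp1 and chr11:48871421-48871500 on the minus strand for Irgm1, where overlapping matches run together. The first match begins 34 bases before the RefSeq start of Igtp, 77 before that of Tgtp1 and 30 before that of Irgm1. For Tgtp1 the RefSeq start differs from that of the counted gene. Its window lies inside the counted gene (chr11:48985327-48994172, minus strand).
Igtp: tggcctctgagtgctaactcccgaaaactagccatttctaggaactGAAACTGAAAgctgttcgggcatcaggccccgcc
Tgtp1: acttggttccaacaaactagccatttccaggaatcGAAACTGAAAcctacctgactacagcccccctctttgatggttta
Irgm1: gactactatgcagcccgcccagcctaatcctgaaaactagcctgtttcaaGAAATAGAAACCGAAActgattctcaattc
Over the 250 bases before the start, 17 of the 31 interferon genes with a promoter in the table held this motif (54.8%), as did 333 of 9843 tested genes (3.38%). A match describes the letters only.

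**Figure D4:**
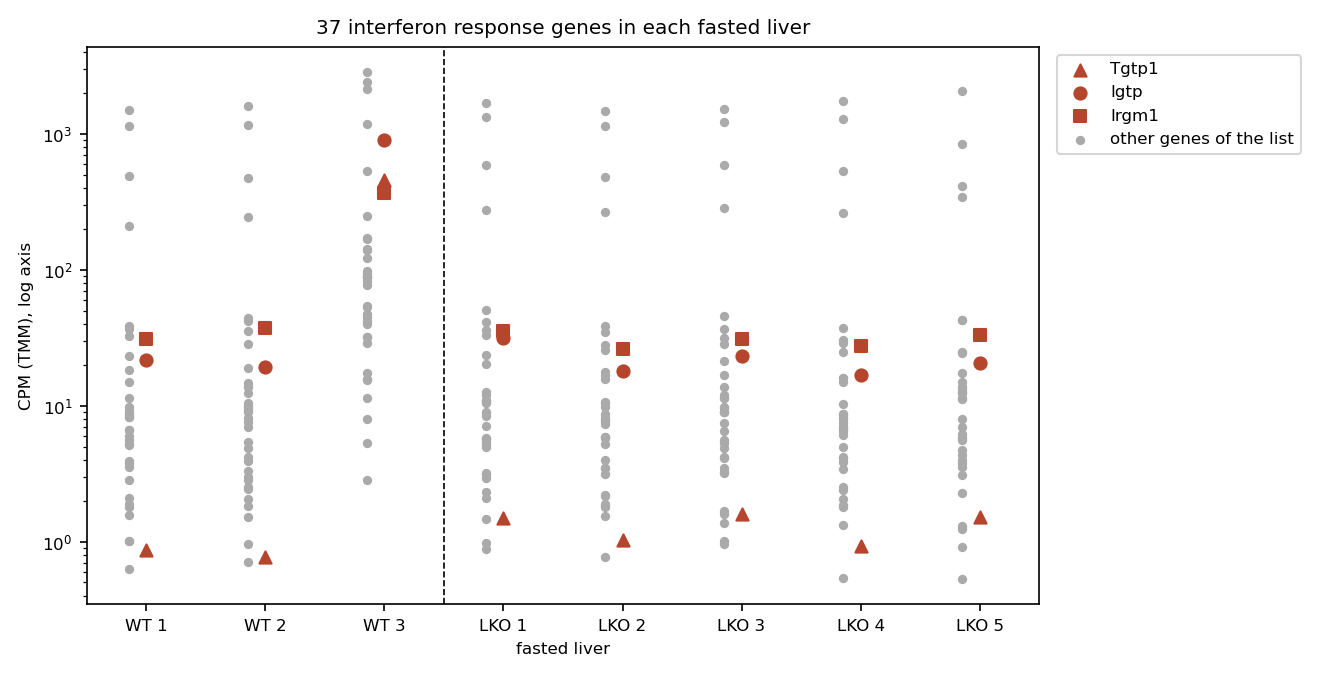
TMM-scaled CPM (log axis) of 37 interferon response genes in each fasted liver, with Tgtp1, Igtp and Irgm1 in red and the others in grey. In WT liver 3 Tgtp1 reaches 464 CPM, while it is at 0.775 to 1.599 CPM in the other 7 livers.

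Markers of Kupffer cells and macrophages followed the same liver. Of 24 markers 16 were lower with a median of -0.33, but without WT liver 3 there were 21 higher and the median was 0.38. Averaged over centred markers, WT liver 3 stood at 0.98, WT livers 1 and 2 at -0.31 and -0.47, and the NAMPT LKO livers between -0.43 and 0.22. Their summed level was 456 to 750 CPM in NAMPT LKO livers and 518 to 1645 CPM in WT livers. The part of these cells in the interferon genes was not tested.

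Spread inside each group was measured over 9160 genes that averaged 5 CPM or more in the fasted livers. The median SD of log2 CPM was 0.22 among NAMPT LKO livers and 0.13 among WT livers, and it was 0.14 without NAMPT LKO liver 5 and 0.09 without WT liver 3. The biological coefficient of variation was 0.246 and 0.253 in the NAMPT LKO and WT groups, and 0.178 and 0.170 once the same liver was left out of each. An SD above 1 was found for 60 genes among NAMPT LKO livers and 127 among WT livers.

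Distances between pairs of livers placed genotype beside this spread. The median absolute log2 difference over genes was 0.127 to 0.177 for the 3 pairs of WT livers and 0.135 to 0.161 for the 6 pairs of NAMPT LKO livers 1 to 4. For the 12 pairs of one of these 4 livers with a WT liver it was 0.128 to 0.200. The 7 pairs that included NAMPT LKO liver 5 lay at 0.317 to 0.398, whichever genotype the partner had. Over these 9160 genes and without NAMPT LKO liver 5, the range for pairs of unlike genotype overlapped the ranges for pairs of 1 genotype.

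**Figure D5:**
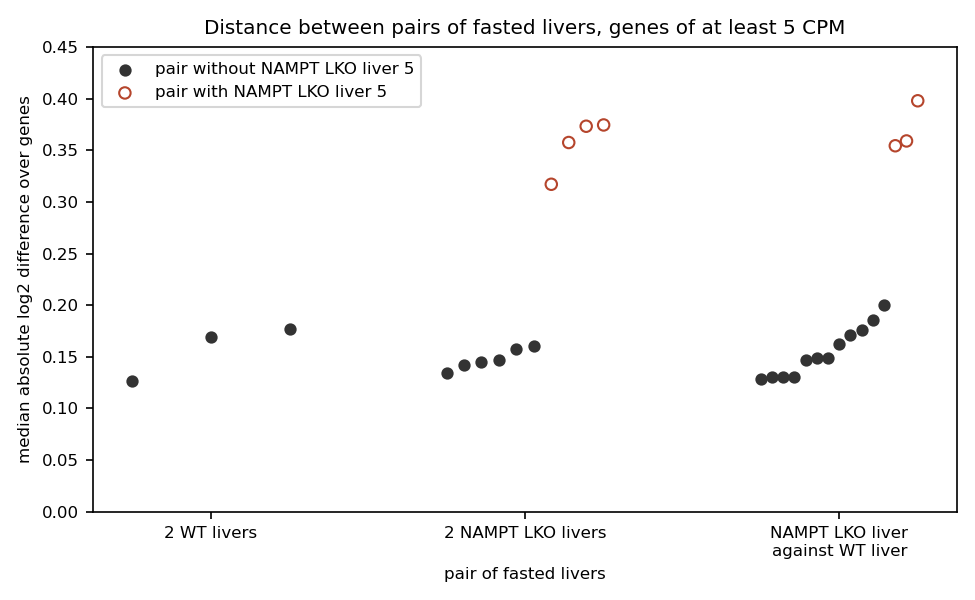
Median absolute log2 difference over 9160 genes for each pair of fasted livers, by the genotypes of the pair, with open red circles for pairs that include NAMPT LKO liver 5. Pairs without that liver lie between 0.127 and 0.200 in all 3 classes, and pairs with it lie between 0.317 and 0.398.

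Single livers differed in distinct genes. NAMPT LKO liver 5 had 48 genes more than 2-fold above and 127 more than 2-fold below every other fasted liver, and WT liver 3 had 105 above and 3 below. In NAMPT LKO liver 3 the acute-phase genes Saa1 and Saa2 reached 3276 and 3153 CPM, against 8.40 to 45.5 and 1.98 to 33.9 CPM in the other 7 fasted livers, and Lcn2, which binds bacterial siderophores, reached 358 CPM against 7.34 to 42.8 CPM. The serum amyloid genes are near-identical copies, so the division between them is uncertain.

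Some multicopy genes were high in some livers and nearly silent or much lower in others of the same group. The major urinary protein gene Mup11 was at 581 and 486 CPM in NAMPT LKO livers 1 and 5 and at 676, 330 and 489 CPM in WT livers 1 to 3, but at 1.14 to 1.67 CPM in NAMPT LKO livers 2 to 4 and at 1.19 and 0.945 CPM in the refed livers. Mup14 followed the same order, with 395 and 170 CPM in NAMPT LKO livers 1 and 5, 203 to 398 CPM in WT Fasting livers and under 3 CPM in the rest. Serpina1e, a protease inhibitor gene, was at 54.3 to 59.7 CPM in NAMPT LKO livers 3 and 4, WT liver 1 and the first refed liver, and at 2360 to 5124 CPM in the other 6. Both families consist of near-identical copies, so uniquely aligned short reads reach only part of each gene.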

How the data were processed

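Liver RNA was selected for poly-A and sequenced as single 50-base reads. The authors aligned reads with STAR to GRCm38 and deposited counts of uniquely aligned reads per Ensembl gene from featureCounts (versions 2.5.1a and 1.4.6-p5 per the submitters' processing notes). The deposited CPM and RPKM values were checked against the counts and not used further. Strand use in counting is not given in the sources used here, which leaves overlapping or antisense genes unresolved. Of 41388 listed genes, 40340 received a GENCODE symbol.

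Genes other than rRNA that exceeded 1 CPM in any library were tested after TMM scaling (edgeR 4.0.16, R 4.3.3, quasi-likelihood test, 10 libraries, 1 mean per group, Benjamini-Hochberg adjustment). DESeq2 1.42.0, limma 3.58.1 (voomWithQualityWeights), edgeR's exact test, other normalizations and filters, and each library left out were alternatives. The lowest chi-square per degree of freedom between replicate libraries was 48.1, far above sampling noise.

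Named genes were Nampt, genes called by the main test or by both the exact test and DESeq2, the 10 largest rises and falls (with a symbol, at least 5 CPM, unadjusted p under 0.05, no overlap), genes the study measured, the lowest p of each of 46 lists, and the most variable genes within each group. Other genes of a list are named to describe it and were chosen after their values were seen. Members and lists were chosen with earlier results of these data known. Promoters came from RefSeq. A few genes of the lists are not reported here by name.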

Additional observations from a re-analysis of the deposited data

Results flagged for a closer look

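Of 144 values checked in the 5 NAMPT LKO livers, 14 had 1 liver separated from the other 4 by a gap of more than 0.71 of the group's range. For unselected, independent values chance flags about 1 in 20, or 7.2. Genes named for their large spread within this group were among those checked, and some values describe the same feature. The 14 therefore cannot be weighed against 7.2. NAMPT LKO liver 5 was the separated liver for Bcam (15.7 CPM, others 3.85 to 6.61), Atpif1 (21.9 CPM, others 7.65 to 11.1), Cyp2b9 (99.9 CPM, others 2.17 to 4.47) and mt-Nd5 (28374 CPM, others 10522 to 13831). It was also separated for the averaged centred level of the mitochondrial genome (1.11, others -0.37 to 0.03) and the share of counts on that genome (21.1%, others 10.4% to 12.9%). NAMPT LKO liver 3 was separated for Saa1 (3276 CPM, others 8.40 to 45.5), Saa2 (3153 CPM, others 1.98 to 13.2) and Lcn2 (358 CPM, others 7.34 to 35.3), and lay below the others for Gm13394 (0.931 CPM, others 1.49 to 1.67). NAMPT LKO liver 1 was separated for Pklr (89.1 CPM, others 36.0 to 47.5), Fasn (143 CPM, others 60.1 to 78.7) and Xist (1.56 CPM, others 0.128 to 0.516). NAMPT LKO liver 4 lay below the others for Trove2 (5.75 CPM, others 8.97 to 9.37).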

How the results depend on the processing

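The number of called genes depended on the test and the filter. It was 24 by edgeR's exact test, 21 by DESeq2, 3 with robust dispersion, 3 with filterByExpr, 2 with library size alone, 17 with no filter beyond 1 count, 3 at an adjusted p of 0.10 and 811 at an unadjusted p under 0.05, and it was 1 with voomWithQualityWeights, with RLE size factors and with the fasted libraries alone. Leaving out each library gave 1 to 2 genes, the second being Spp1 (without NAMPT LKO liver 3), Psmc3ip (without WT liver 1) or Sult5a1 (without WT liver 2). The cause of these differences was not tested. Nampt stayed between -3.03 and -2.37 when each library was left out (adjusted p from 3.44e-05 to 0.0103).

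The numbers in the labels were not treated as pairs of mice. Deviations of same-numbered livers correlated at 0.083, 0.068 and 0.19 (mean 0.114, against -0.0723 for other numbers). So few correlations neither establish nor exclude a pairing. Libraries numbered 1 to 3 with a replicate block gave 0 calls by edgeR's quasi-likelihood test (879 genes at an unadjusted p under 0.05) with Nampt at -2.78 (adjusted p = 0.099), and without the block 0 calls (832) with Nampt at -2.87 (adjusted p = 0.264), on fewer samples.

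Several small or liver-bound differences changed sign. Leaving out each library gave ranges for Tgtp1 (-7.47 to 0.67), Tgtp2 (-5.14 to 1.03), Igtp (-4.39 to 0.092), Zbp1 (-3.99 to 0.30), Gbp7 (-3.50 to 0.55), Cxcl9 (-3.62 to 0.39), H2-Ab1 (-2.29 to 0.70), BC023105 (-5.76 to 0.60) and Gm43302 (-4.83 to 0.53), each positive only without WT liver 3. Saa1 (-0.46 to 4.63), Saa2 (-1.22 to 6.38) and Lcn2 (-0.64 to 2.19) were negative only without NAMPT LKO liver 3. Ranges also crossed 0 for Cyp2b9 (-2.36 to 1.29), Pklr (-0.31 to 0.10), Acaca (-0.068 to 0.10), Elovl6 (-0.024 to 0.32), Gpam (-0.034 to 0.047) and Ankrd60 (-0.25 to 0.44). A fit without both NAMPT LKO liver 5 and WT liver 3, chosen after seeing the data, called 1 gene, Nampt (-2.43), and gave Tgtp1 0.62, Tgtp2 0.99, Igtp 0.11, Zbp1 0.36, Gbp7 0.35, Cxcl9 0.46, H2-Ab1 0.87, BC023105 0.64, Gm43302 0.47, Cyp2b9 -2.39, Elovl6 -0.16, Fasn 0.0041 and Hspb8 0.0040. Of the other settings, voomWithQualityWeights gave Acaca -0.00031, Elovl6 -0.13, H2-Ab1 0.069 and Cyp2b9 -1.91. The replicate block gave Cyp2b9 -1.96, Gpam -0.012 and Pklr 0.10, and the same libraries without the block gave -2.29, -0.0090 and 0.16. Gpam was -0.023 with library size alone, where the median of all genes moved to -0.028, and -0.0011 with no filter. Outside the 81.8% of genes whose 95% interval lay within 2-fold, these libraries do not bound the difference to 2-fold, and genes under 1 CPM rest on few reads.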
